A study of Gallus gallus with 30 samples.

Results

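The genes described here are 150 late-raised genes of the chicken embryo, taken from 13008 genes that were measured by at least 1 chicken probe set with a single gene symbol. For each gene a score was computed from log2 signals floored at 40: the lowest of the stage means at HH32, HH34 and HH38 minus the highest stage mean from HH1 to HH24. The best probe set of a gene stood for it, and the 150 highest scores were kept. The stage HH27 did not enter the score. The late-over-early difference therefore chose the genes and is given as a description with no test, as is the fact that all 6 arrays of HH32 to HH38 lay above all 22 arrays of HH1 to HH24 in 150 of 150 genes.

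The tissue was the whole embryo of wild type chickens of the Nera line, without yolk or amnion, at 15 stages of the Hamburger and Hamilton (HH) series. The late stages were HH32, HH34 and HH38, embryos with formed organs. Between them and the early ones lay HH27. The early stages, from the blastoderm to the embryo with limb buds, numbered 11: HH1, HH2, HH4 and HH6, then HH8, HH9 and HH11, then HH14, HH16, HH19 and HH24. Each stage had 2 RNA pools of several embryos, labelled as biological replicates of mixed sex, and each pool was read on 1 Affymetrix Chicken Genome Array, 30 arrays in all. Values are given as linear MAS5 signals. A stage mean is the geometric mean of its 2 arrays, and a probe set counted as above background when it passed the 95th percentile of the 689 probe sets for other organisms on the same array.

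In this stretch of development the liver takes over the making of plasma proteins, muscle fibres gain their contractile apparatus, cartilage is laid down ahead of bone, skin stratifies, and neurons form synapses and begin to be myelinated. Plasma proteins are also made earlier, by the yolk sac endoderm, which nourishes the embryo before the liver is formed. Contractile, matrix and synaptic genes are typical products of cells that carry out the work of a tissue. Because every array held RNA of whole embryos, more cells of a type and more RNA per cell cannot be told apart in any value below.

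The genes were proposed as being first used from HH32 on, and the arrays did not bear that out. On the arrays of HH1 to HH24, 144 of the 150 were above background at least once, and 125 were above it on both arrays of at least 1 of these stages. At HH24 alone 105 were above background on both arrays, at HH19 99, at HH16 86 and at HH1 46. Lasting detection, meaning both arrays above background at a stage and at every later one, began at HH27 for 42 genes and at HH32 for 4 (LBFABP, C3, KRT5 and ATP6V0D2). It began at HH24 for 12, at HH19 for 15 and at HH1 for 23, among them ALB, COL9A1, PENK and NFIA. Background was the highest of any array on HH24 replicate 1, at 47.2. It was 34.9 on HH24 replicate 2 and 32.5 and 35.8 on the HH27 arrays. A gene below this higher limit on HH24 replicate 1 could not count as detected at HH24. How many of the 42 genes would start earlier with a lower limit there was not tested. On the probe set that stood for them, EPYC, AVDL, RPRM, TAT, LRRFIP1 and MYLPF, 6 in number, were below background on all 22 early arrays. Further probe sets of LRRFIP1 had scores from -1.86 to 0.34, most of them below 0, so it cannot be called silent early. The list is therefore one of genes raised late, most of which were already measurable earlier.

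**Figure D1:**
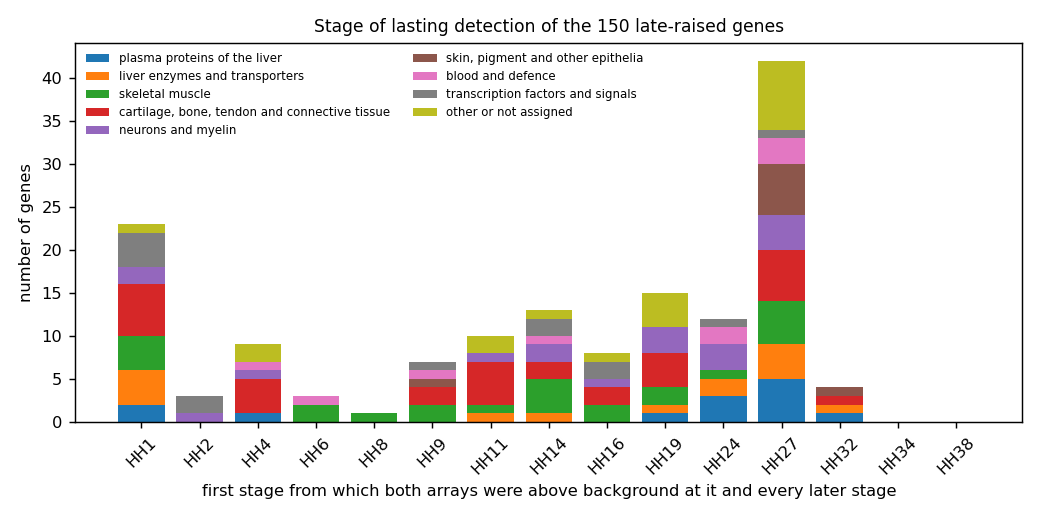
Number of the 150 genes (vertical axis) by the first stage from which both arrays were above background at that and every later stage (horizontal axis), coloured by role. The highest bar is HH27 with 42 genes, HH1 follows with 23, and HH34 and HH38 have 0.

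The scores ran from 7.33 for ALB, a 161-fold difference, to 1.55, a 2.93-fold difference, with a median of 2.00, or 4.00-fold. Over all 13008 genes the median score was -0.31, and 2126 genes (16.3%) had a score above 0. The 10 highest were ALB (7.33), MYH1C (5.77), SPP2 (5.77), EPYC (5.33), MYH1B (5.26), SULT (5.25), RBP4 (4.76), AvBD9 (4.56), AVDL (4.51) and FETUB (4.27). The limit fell in a dense part of the ranking. GPR22, SMYD1, MYOG and MYBPC1 stood just inside it with scores of 1.5551, 1.5526, 1.551 and 1.5499, and SLC6A19, CMBL, CFI and FAM20C just outside with 1.5485, 1.542, 1.5402 and 1.5371. A score is a difference within a probe set, so the order does not rank the genes by abundance, and for the 10 genes at or below 40 on all early arrays it is set by the floor.

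By what their products do, the 150 fell into 13 plasma proteins of the liver, 14 liver enzymes and transporters, 24 genes of skeletal muscle, 32 of cartilage, bone, tendon and connective tissue, 18 of neurons and myelin, 8 of skin, pigment and other epithelia, 9 of blood and defence, 13 transcription factors and signals, and 19 that were of other kinds or were not assigned. These roles were given by hand after the members were known. HH24 held the highest early mean in 97 genes, a stage of HH11 to HH19 in 18 and a stage of HH1 to HH9 in 25, while 10 stayed at the floor. HH38 was the highest late stage in 23 of 24 muscle genes and 26 of 32 connective tissue genes. It was the highest in 8 of 13 plasma proteins and in 6 of 18 genes of neurons and myelin. Over all 150, HH38 was highest in 106, HH34 in 22 and HH32 in 22. Which late stage was highest was not counted over all genes.

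**Figure D2:**
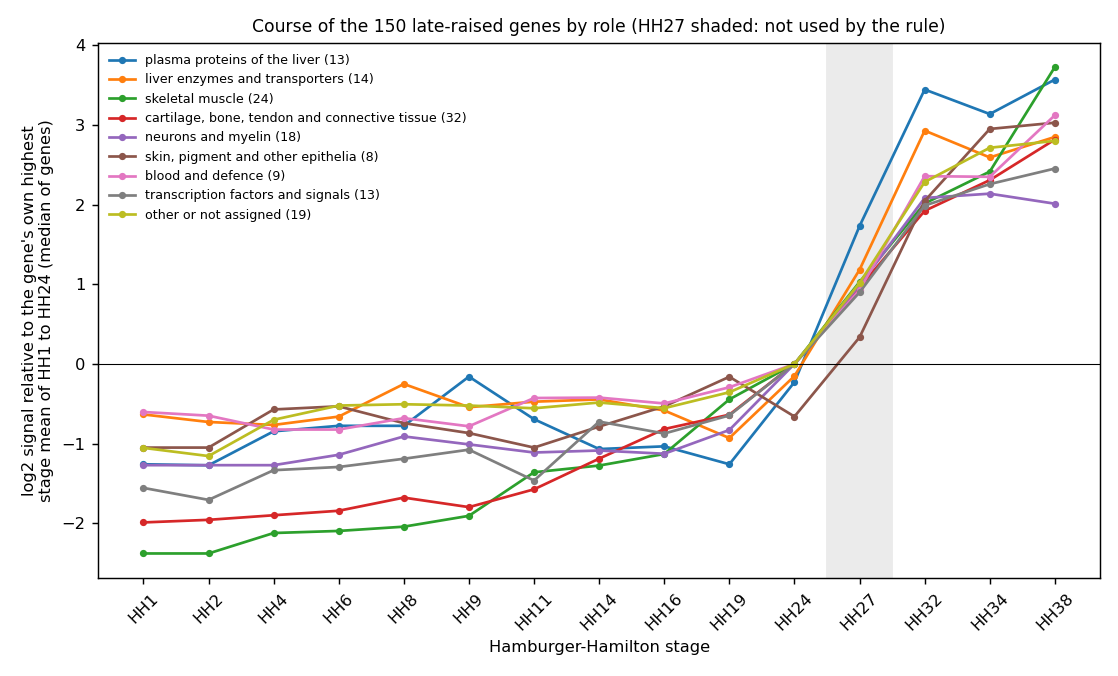
Median course of each role over 15 stages (horizontal axis) as log2 signal, floored at 40, relative to each gene's own highest stage mean from HH1 to HH24 (vertical axis), with the stage not used by the rule shaded. Plasma proteins lie highest at HH32, and muscle genes are the highest line at HH38.

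Replicate arrays agreed closely where the genes were high. The median absolute log2 difference between both arrays of a stage, over the 150, was 0.11 at HH32, 0.12 at HH34 and 0.16 at HH38, against 0.35 at HH24, where 120 of 150 genes lay within 2-fold between arrays. Over all arrays background was 25.4 to 47.2 and 65.0% to 72.8% of chicken probe sets lay above it. The HH38 arrays stood apart from the other 28. The ratio of 3' to 5' actin control signals was 2.48 and 2.99 on them, against 1.54 to 2.01 elsewhere, while that of GAPDH was 1.17 and 1.07, against 0.993 to 1.16 elsewhere. On the same arrays the W-linked gene HINTW was at 3.56 and 30.3, against at least 13066 elsewhere, although the labels give the pools as mixed sex. The 7 Z-linked members (RBP4, AVDL, BHMT2, CRHBP, NFIB, MEF2C and PIK3R1) had a median HH38 minus HH34 difference of 0.01 on the floored log2 scale, and the 143 others 0.33. The part of these array differences in the HH38 results was not tested. With HH38 left out of the score, 131 of the 150 genes were chosen again.

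**Figure D3:**
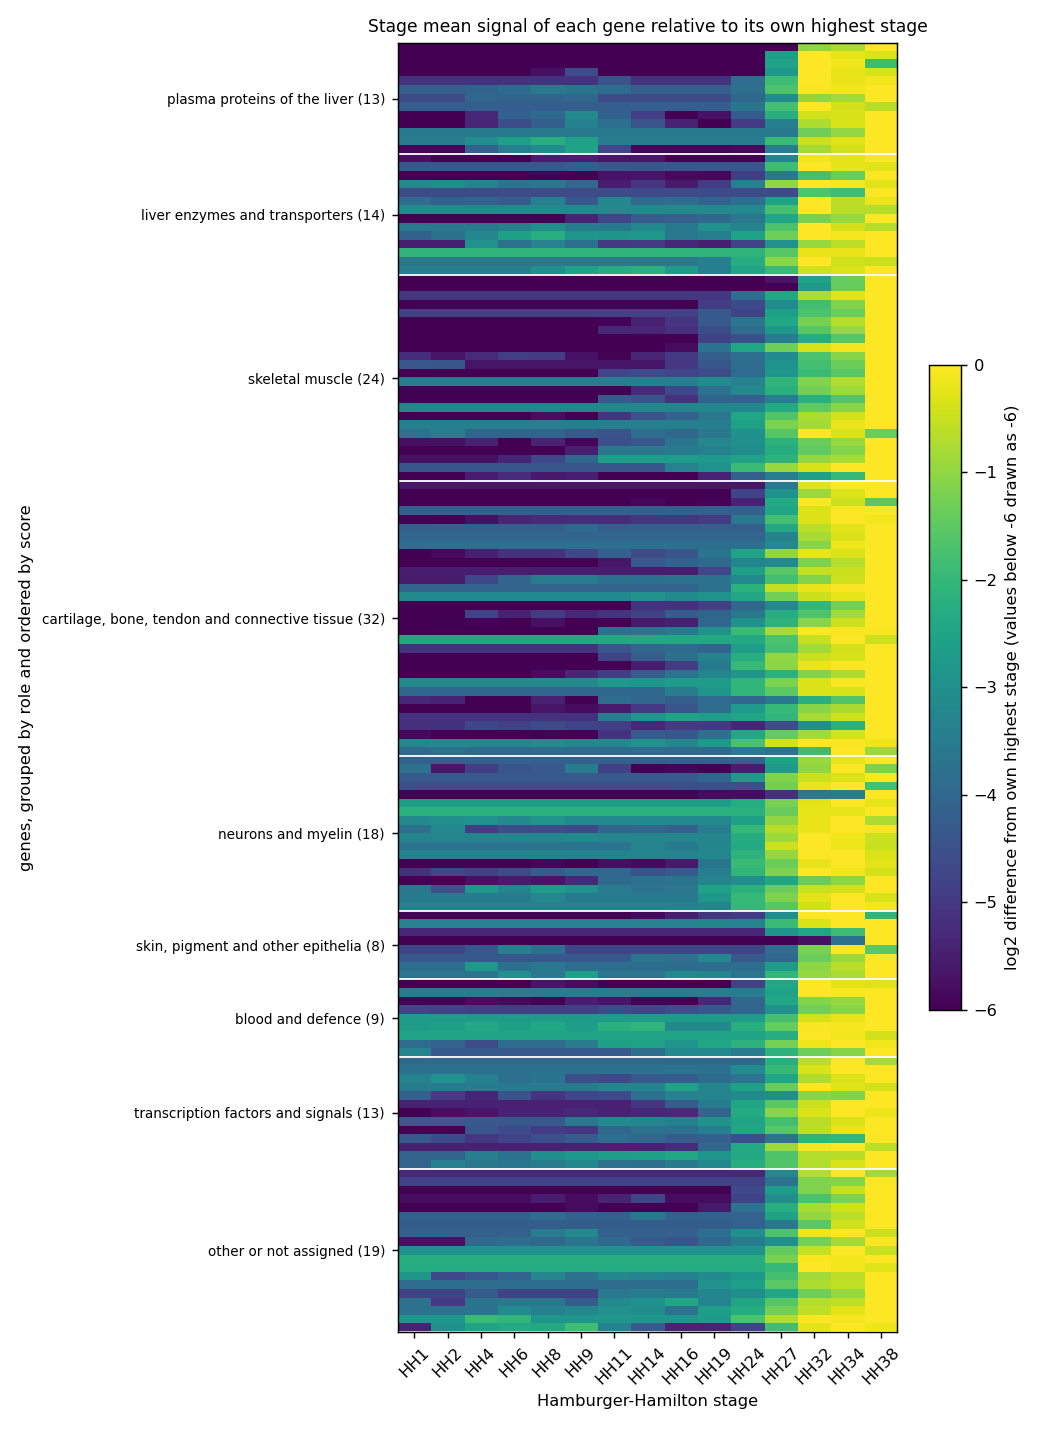
Stage mean of each of the 150 genes (rows, grouped by role and ordered by score) at 15 stages (columns), as log2 difference, floored at 40, from the gene's own highest stage. Yellow cells crowd at HH32 to HH38 in every role, and some plasma protein and liver enzyme rows brighten at HH4 to HH9 as well.

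The step to HH27 was read first, because HH27 was left out of the rule. Plasma proteins and liver enzymes made up 14 of the 34 members that rose between HH24 and HH27, and none fell. In limma's test 34 of 150 were called higher (adjusted p below 0.05 over 29600 probe sets and at least 2-fold) and 0 lower, against 0.753% higher and 0.169% lower among all probe sets. At an unadjusted p below 0.05, 79 members were higher and 0 lower. The HH24 arrays did enter the rule, so a low HH24 signal helped a gene to be chosen, and nothing is read from the gap between these shares. The median fitted difference was 1.26 over members and 0.01 over all probe sets, and with signals floored at 40 it was 1.12 over members and 0 over all genes. The count was 14 without HH24 replicate 1, 18 without either HH27 array, at most 39 without any other array and 86 with signals floored at 40, and 12 members were called under all 36 alternatives: FETUB, SPP2, SULT, CRHBP, ALB, AvBD9, AKR1B10, ITIH2, EGFL6, GC, COL9A1 and PENK.

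The HH27 mean lay between those of HH24 and HH32 in 149 of 150 on signals without a floor. With signals floored at 40, HH27 was above HH24 in 145 and below it in 3. The rule chose genes with a low HH24 and a high HH32, which favours such an order. The same counts were not made over all genes, so nothing is read from them. Both HH27 arrays exceeded all 22 earlier arrays in 131 of 150, where 9.46% of all genes did so, again with the earlier arrays used by the rule. The exceptions numbered 19 and included GC, MBL2, ETNPPL and CL2, whose early signals peaked at HH4 or HH9. From HH27 to HH32 the median floored difference was 1.25 over members, a step that the rule used and that was not tested.

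Few members were called in the later steps. Between HH32 and HH34 no member was called by limma, where 0.0338% of all probe sets passed as higher and 0.027% as lower (0.0608% in all). The lowest adjusted p was 0.218, 8 members were higher and 0 lower at an unadjusted p below 0.05, and 5 were called with signals floored at 40. Between HH34 and HH38, 10 members rose (KRT5, COL20A1, EGR1, MYBPC1, MFAP5, MAT1A, COL6A2, KLF2, ACTN2 and MYOT) and 2 fell (CRHBP and GKN2), where 2.32% of all probe sets were called higher and 1.48% lower. The rule used these late arrays through their minimum, so a gene that fell far in a late step lost score. Nothing is therefore read from the members' shares, 2 of 150 for the falls, beside those of all probe sets. The count of 12 was 6 or 7 when any 1 of the HH34 or HH38 arrays was left out and 32 with signals floored at 40. COL20A1, EGR1, MAT1A, ACTN2 and MYOT were called under all 36 alternatives.

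**Figure D4:**
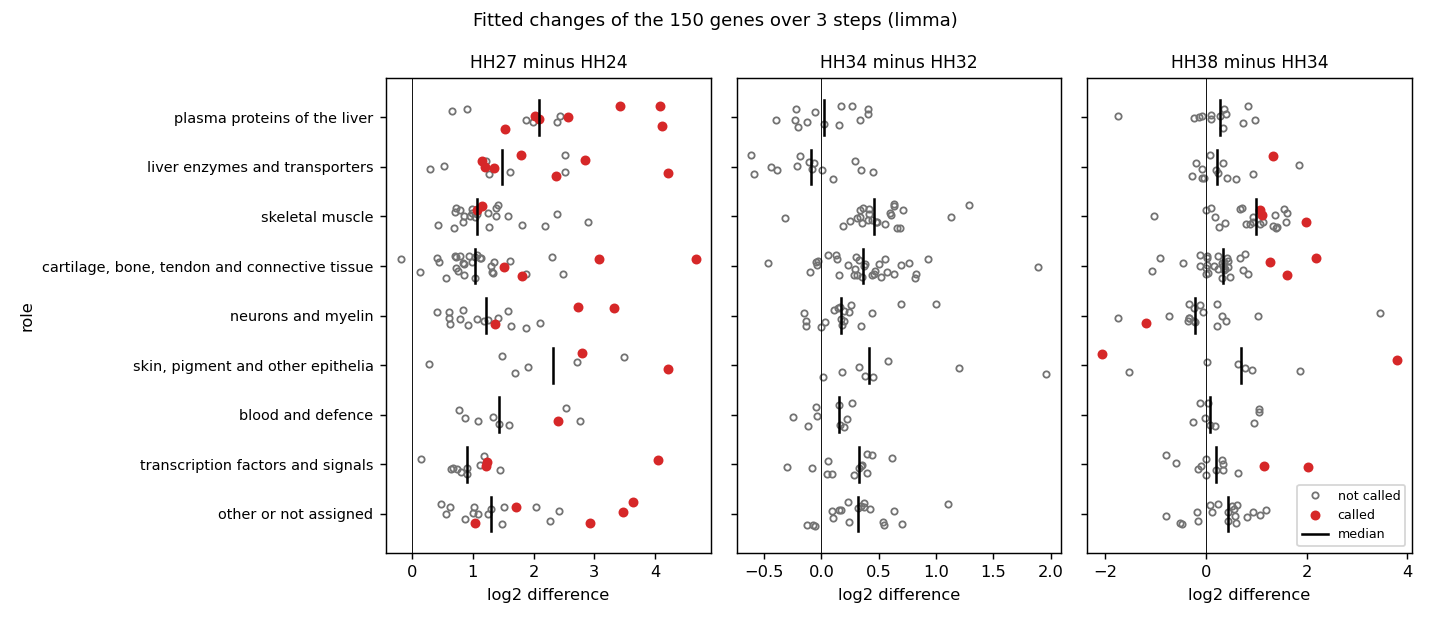
Fitted log2 difference of each of the 150 genes (points) for 3 stage steps (panels, horizontal axes), by role (vertical axis), with called genes in red and the median of each role as a bar. Calls at HH27 minus HH24 are all to the right of 0, there are none at HH34 minus HH32, and 2 of the 12 at HH38 minus HH34 are to the left.

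Of 13 plasma proteins, 7 rose between HH24 and HH27 by limma's test (ALB, SPP2, FETUB, RBP4, F12, ITIH2 and GC). In the steps from HH32 to HH34 and from HH34 to HH38, 0 were called, where 0.0608% and 3.8% of all probe sets were. With only 13 genes, such shares leave few or no calls to expect, so nothing is read from the 0. From HH27 to HH32 all 13 were higher, with a median difference of 2.27 on the floored log2 scale. The rule used that step, and it was not tested. Their median HH34 minus HH32 difference was 0.02 and HH38 minus HH34 0.28 on the log2 scale, and 5 of 13 were highest at HH32. The standard errors below are those of limma's fit, pooled over all 15 stages with n = 2 arrays each.

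ALB, albumin, the main protein of blood plasma, had signals of 22426 and 22013 at HH32, 28439 and 25158 at HH34 and 41009 and 48315 at HH38. The lowest, median and highest of its 22 earlier arrays were 32.6, 86.4 and 205, all above background. At HH27 it had 779 and 621, against 124 and 112 at HH24, a log2 difference of 2.56 ± 0.34 (limma, adjusted p = 0.000161). Both HH27 arrays were above all earlier ones and far below the late ones, so that most of the difference lay after HH27. SPP2, a secreted phosphoprotein made in liver and held in bone matrix, had 22449 and 21249 at HH32, 19003 and 18189.5 at HH34 and 15534 and 19794 at HH38, over earlier arrays of 4.73, 43.8 and 381 (lowest, median and highest). It had 3580.1 and 3352 at HH27, against 273 and 381 at HH24, a difference of 3.43 ± 0.48 (limma, adjusted p = 0.000274). FETUB, of the fetuin family of protease inhibitors, had 1905 and 1886 at HH27, against 95.3 and 133 at HH24, a difference of 4.07 ± 0.69 (limma, adjusted p = 0.00165), and then 13588 and 12853 at HH32, 11102 and 11507 at HH34 and 8943 and 11824 at HH38. FETUB was also high before, with a stage mean of 532 at HH9 against 6.26 at HH1, so its course had an early and a late part.

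RBP4 and RBP4A are separate entries, both named for the plasma carrier of retinol. RBP4A, no member, had stage means of 32590 at HH8, 478 at HH24 and 8300 at HH38. The member RBP4 was seldom above background before HH27. It had 1237 and 1119 at HH27, against 39.0 and 117 at HH24, where 1 array was below background, a rise of at least 15.8-fold (limma, adjusted p = 0.00648, lost without HH24 replicate 1 or either HH27 array). Of its 22 earlier arrays 1 was above background. It then had 6349 and 7384 at HH32, 6331 and 6188 at HH34 and 1931 and 1783 at HH38, so both HH38 arrays lay below those of HH32 and HH34, a difference of -1.75 ± 0.84 from HH34 that did not pass limma's test (adjusted p = 0.199). GC, the vitamin D-binding protein, had 632 and 527 at HH27, against 222 and 180.4 at HH24 (difference 1.53 ± 0.24, limma, adjusted p = 0.000747), and then 3960.4 and 3392 at HH32, 4827 and 4871 at HH34 and 5286 and 7056 at HH38. ITIH2, a heavy chain of the inter-alpha-trypsin inhibitors, differed by 2.03 ± 0.29 over the same step (adjusted p = 0.000333), and F12, a clotting factor with 1 HH24 array below background, rose at least 3.82-fold (adjusted p = 0.0194, lost without HH24 replicate 1 or either HH27 array).

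Further members belong to the clotting and complement systems. CPB2, a carboxypeptidase that slows clot lysis, had 1428 and 1368 at HH32, 1255 and 1179 at HH34 and 1173 and 1433 at HH38, over earlier arrays of 2.12, 31.3 and 142. The kinin precursor KNG1 had 829 and 667 at HH32, 651 and 489 at HH34 and 421 and 539 at HH38, over 1.59, 8.51 and 105, and F9, a clotting factor, 326 and 318 at HH32, 391 and 339 at HH34 and 401 and 486 at HH38, over 1.86, 26.7 and 97.9. Their differences between HH24 and HH27 did not pass the test (limma, adjusted p = 0.285, 0.294 and 0.248). C3, the central complement protein, had 198 and 189 at HH32, 236 and 251 at HH34 and 421 and 537 at HH38, and 1 of its 22 earlier arrays was above background. C8A, of the complement attack complex, had 604 and 407 at HH32, 625 and 487 at HH34 and 856 and 1135 at HH38, over 2.19, 36.0 and 98.2. Among the late stages HH32 had the lowest mean in C3, C8A and F9, and HH38 in KNG1, and none of these 4 was called in a late step.

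Of 14 liver enzymes and transporters, 7 rose between HH24 and HH27 (SULT, TAT, AKR1B10, ETNPPL, MAT1A, ADH1C and BHMT2), and 1, MAT1A, also rose between HH34 and HH38. MAT1A, which makes S-adenosylmethionine in liver, had 1103 and 1065 at HH27, against 365 and 499 at HH24, a log2 difference of 1.34 ± 0.23 (limma, adjusted p = 0.00165, and above 0.05 without HH24 replicate 1). It then had 3969 and 3489 at HH32, 5011 and 5129.7 at HH34 and 12961 and 12749 at HH38, and the step to HH38 was again 1.34 ± 0.23 (adjusted p = 0.000302). No arrays of neighbouring stages overlapped in either step, which calls of this size favour. BHMT2, of the methyltransferases that remake methionine from homocysteine, had 11988 and 11883 at HH32, 14765 and 14565 at HH34 and 26846 and 29256 at HH38, over earlier arrays of 46.5, 689 and 2649.6. It differed by 1.14 ± 0.21 between HH24 and HH27 (adjusted p = 0.00334, above 0.05 without HH24 replicate 1) and by 0.93 ± 0.21 between HH34 and HH38 (adjusted p = 0.00417), under the 2-fold limit of a call.

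SULT, a sulfotransferase by its symbol, had 6327 and 5749 at HH32, 6233 and 4999 at HH34 and 5667 and 7633 at HH38, over earlier arrays of 55.0, 104 and 208, and 679 and 673 at HH27, against 84.6 and 105 at HH24 (difference 2.84 ± 0.39, limma, adjusted p = 0.000237). TAT, which starts tyrosine breakdown, was below background on all 22 earlier arrays and had 98.9 and 112 at HH27, against 3.66 and 8.73 at HH24, a rise of at least 2.59-fold (adjusted p = 0.0124, lost without HH24 replicate 1 or either HH27 array). The aldo-keto reductase AKR1B10 had 939 and 1013 at HH27, against 205 and 175 at HH24 (difference 2.36 ± 0.35, adjusted p = 0.000412), and stayed between 1601 and 1987 on the late arrays. In each of these genes both HH27 arrays were above both HH24 arrays and below the late ones, an order that the calls and the rule favour. ETNPPL, a lyase of phosphoethanolamine, differed by 1.79 ± 0.36 (adjusted p = 0.00606, lost without HH24 or HH27 replicate 1) and ADH1C, an alcohol dehydrogenase, by 1.20 ± 0.24 (adjusted p = 0.00554, lost without HH24 replicate 1 or either HH27 array).

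The remaining liver genes differed in which late stage was highest. LBFABP, the liver basic fatty acid-binding protein, was below background on both arrays of HH27, with 25.7 and 4.34, and then had 263 and 377 at HH32, 256 and 299 at HH34 and 862 and 1147 at HH38. TDO2, which starts tryptophan breakdown, had 458 and 499 at HH32, 431 and 311 at HH34 and 312 and 295 at HH38, and CYP8B1, a bile acid hydroxylase, 758 and 875 at HH32, 596 and 493 at HH34 and 612 and 860.5 at HH38. LIPC, the hepatic lipase, had 816 and 827 at HH32, 732 and 682 at HH34 and 573 and 782 at HH38, over earlier arrays of 2.99, 13.5 and 63.2, and its neighbour on the chromosome AQP9, a channel for water and glycerol, had 533 and 448 at HH32, 335 and 389 at HH34 and 269.9 and 457 at HH38. In TDO2, LIPC, TAT, AQP9, CYP8B1 and AKR1B10 the highest late mean was at HH32. None of these late differences passed limma's test.

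Skeletal muscle genes were highest at HH38. Of 24, 23 had their highest late mean at HH38, the median HH38 minus HH34 difference was 1.00 on the log2 scale and 3 rose in that step by limma's test (MYBPC1, ACTN2 and MYOT), while 2 (TNNC2 and MYL10) rose between HH24 and HH27. The fitted spread of several was wide, since the fit pools all stages and these genes lay near or below background at the first ones. MYH1C and MYH1B are fast myosin heavy chains. MYH1C had 2097 and 2374 at HH32, 4923 and 4845 at HH34 and 11932 and 13734 at HH38, and MYH1B had 1596 and 1853 at HH32, 4045 and 4381 at HH34 and 10897 and 11553 at HH38. Their earlier arrays did not pass 41.5 and 45.9. Both are read by probe sets marked as open to cross-hybridisation, and they lie 1 gene apart in a family of near-identical copies, so their signals cannot be assigned to 1 gene with certainty.

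TNNC2, the fast troponin C, had 2222 and 2349 at HH27, against 1086 and 1094 at HH24 (difference 1.07 ± 0.22, limma, adjusted p = 0.00631, lost without HH24 replicate 1 or either HH27 array), and then 5324 and 5392 at HH32, 8250.1 and 8423 at HH34 and 15861 and 15937 at HH38. The myosin light chain MYL10 had 6792 and 6443 at HH27, against 2551 and 3477 at HH24 (difference 1.15 ± 0.23, adjusted p = 0.00544, lost without HH24 or HH27 replicate 1), and then 12685 and 13165 at HH32, 15565 and 15193 at HH34 and 16175 and 16864 at HH38. ACTN2, alpha-actinin of the Z-disc, had 12052 and 11155 at HH38, against 5453 and 5247 at HH34 (difference 1.12 ± 0.26, adjusted p = 0.00498). MYOT, myotilin, also of the Z-disc, had 4675 and 4381, against 2165 and 2138 (difference 1.07 ± 0.17, adjusted p = 0.000141). In all 4 genes the arrays of both stages did not overlap, which their calls favour, so it adds no support. MYBPC1, slow myosin-binding protein C, had 8134 and 7945 at HH38, against 2029.8 and 2016 at HH34 (difference 1.99 ± 0.66, adjusted p = 0.0488), a call kept in 10 of 36 alternatives.

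Other sarcomere genes had the same order of stages and were not called between HH34 and HH38. The fast troponin TNNI2 had 1587 and 1449 at HH32, 2461 and 2523 at HH34 and 5390.5 and 5492 at HH38. Another fast troponin, TNNT3, had 952 and 993 at HH32, 1465 and 1663 at HH34 and 4533 and 4879.6 at HH38. Their fitted differences were 1.13 ± 0.83 and 1.59 ± 0.92 (limma, adjusted p = 0.462 and 0.31). MYL1, a myosin light chain, had 6906 and 6767 at HH32, 10227 and 9873 at HH34 and 15205 and 16964 at HH38, and MYOM2, an M-band protein, 1312 and 1287 at HH32, 1639 and 1701 at HH34 and 4868 and 4959 at HH38. MYOZ2, a calsarcin of the Z-disc, had 2117 and 2187 at HH32, 2861 and 2867 at HH34 and 5343 and 5171 at HH38, and KLHL41, a sarcomere-stabilising protein, 1026 and 936 at HH32, 1261 and 1397 at HH34 and 2643 and 2431 at HH38. KLHL41 passed limma's test with a difference of 0.93 ± 0.25 (adjusted p = 0.0144), under the 2-fold limit of a call. In each of these 6 genes both HH38 arrays were above both HH34 arrays. The same count was not made over all genes, so nothing is read from it. CACNG1, a subunit of the muscle calcium channel, had 344 and 361 at HH32, 398 and 478 at HH34 and 1091 and 1183 at HH38, and MYLPF, a fast regulatory light chain never above background before HH27, 157 and 119 at HH32, 185 and 177 at HH34 and 369 and 393 at HH38.

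Regulators of muscle identity also belonged to the set. MYOD1, the master factor of the myogenic lineage, had 1967 and 1746 at HH32, 2447 and 2247 at HH34 and 3199 and 2945 at HH38, over earlier arrays of 19.0, 63.7 and 603. MYOG, myogenin, which acts at the onset of differentiation, had 648 and 674 at HH32, 932 and 766 at HH34 and 859 and 835 at HH38, over 4.35, 16.2 and 232, and its fitted HH38 minus HH34 difference was 0.00 ± 0.66 on the log2 scale. Myomaker (TMEM8C), which fuses myoblasts, had 201 and 280.3 at HH32, 332 and 423 at HH34 and 474 and 378 at HH38. OSTN, osteocrin, a peptide secreted by muscle and bone, was the muscle gene with its highest late mean at HH32, with 888 and 853 at HH32, 707 and 692 at HH34 and 316 and 375 at HH38, a difference of -1.02 ± 0.41 from HH34 to HH38 that did not pass the test (limma, adjusted p = 0.114).

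**Figure D5:**
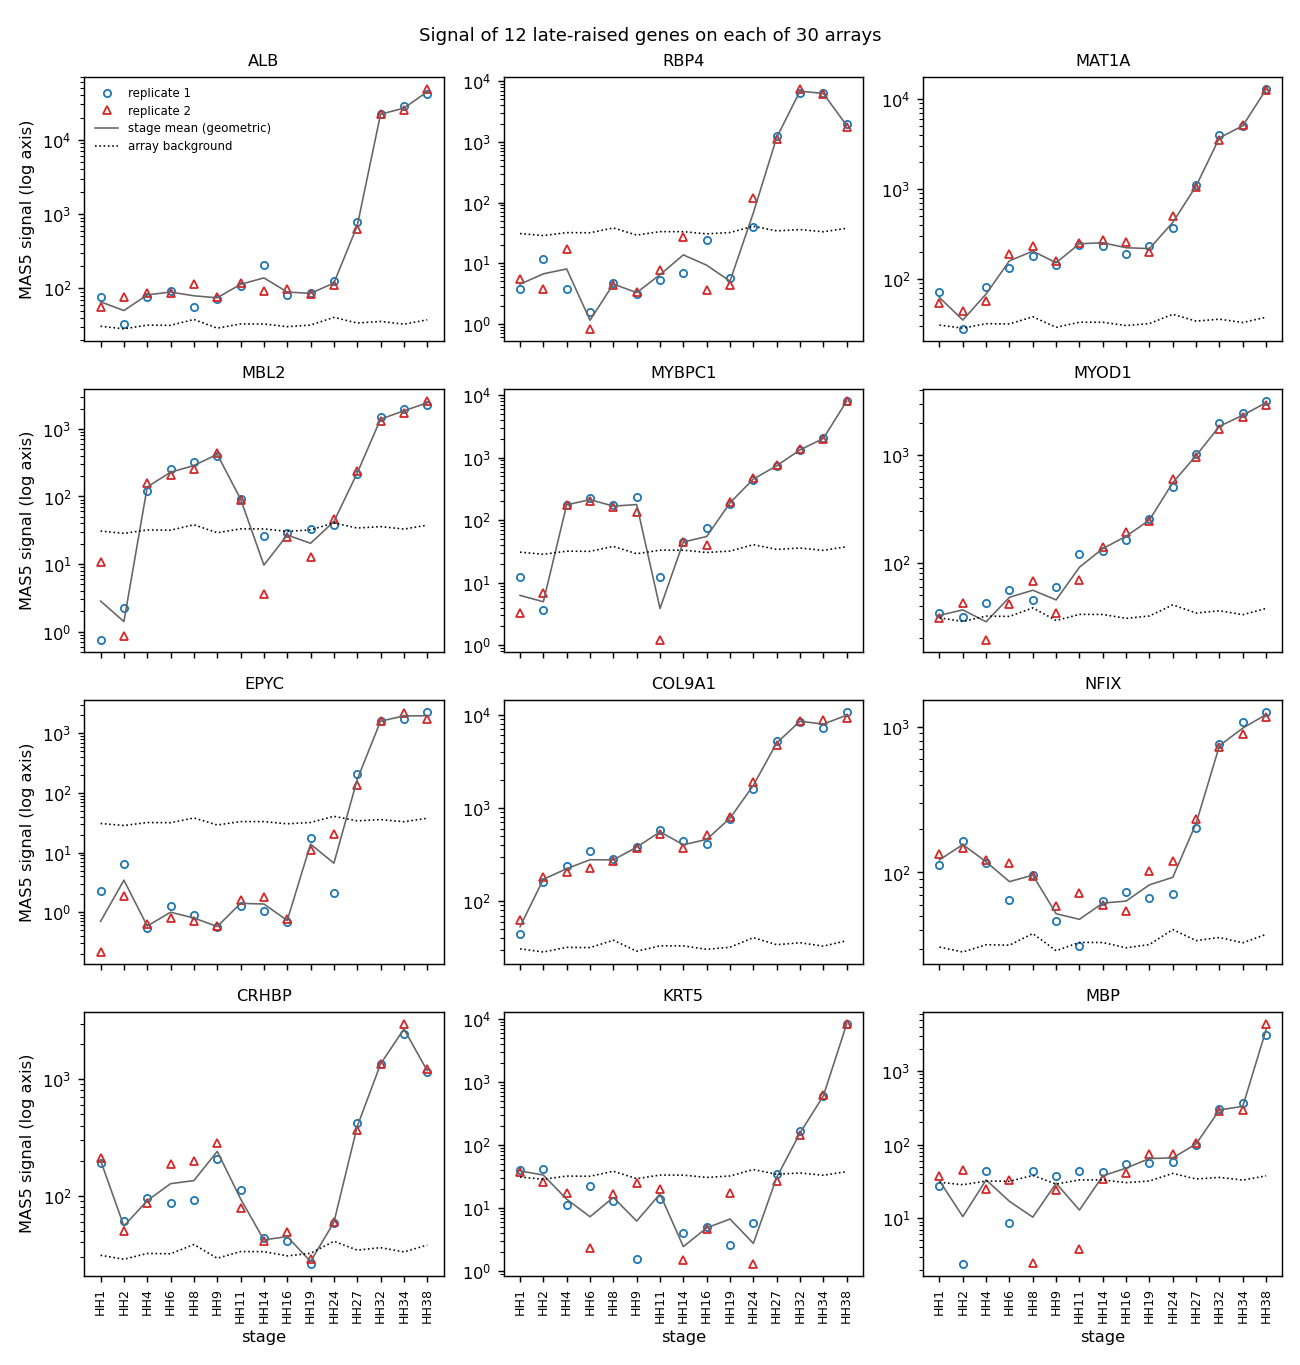
MAS5 signal (vertical axes, log scale) of 12 of the 150 genes on each of 30 arrays by stage (horizontal axes), with circles for replicate 1, triangles for replicate 2, a line for the geometric stage mean and a dotted line for array background. ALB stays above background throughout, EPYC crosses it at HH27, MBL2 and MYBPC1 show an earlier plateau, and KRT5 and MBP climb most at HH38.

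Cartilage, bone, tendon and connective tissue formed the largest group. Of 32, 4 rose between HH24 and HH27 (EPYC, FGFBP2, EGFL6 and COL9A1) and 3 between HH34 and HH38 (COL20A1, MFAP5 and COL6A2). EPYC, epiphycan, a proteoglycan of growth-plate cartilage, was below background on all 22 earlier arrays. It had 208 and 137 at HH27, against 2.14 and 20.6 at HH24, a rise of at least 4.16-fold (limma, adjusted p = 0.0308, lost in 9 of 36 alternatives), and then 1582 and 1627 at HH32, 1755 and 2189 at HH34 and 2257 and 1733 at HH38. COL9A1, a collagen on the surface of cartilage fibrils, had 5190.1 and 4758 at HH27, against 1614 and 1884 at HH24 (difference 1.51 ± 0.18, adjusted p = 3.53e-05), and then 8374 and 8621 at HH32, 7186 and 8733 at HH34 and 10595 and 9184 at HH38. Neither gene was called in a late step, with HH38 minus HH34 differences of 0.01 ± 1.19 and 0.32 ± 0.18.

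MATN1, cartilage matrilin, had 618 and 516 at HH32, 599 and 809 at HH34 and 807 and 604 at HH38, over earlier arrays of 0.591, 17.7 and 44.9, and ACAN, aggrecan, the large cartilage proteoglycan, 388 and 366 at HH32, 353 and 379 at HH34 and 371 and 304 at HH38, over 2.67, 21.8 and 128. The partner chain COL9A3 had 3080.1 and 3271 at HH32, 2830.5 and 3333 at HH34 and 3579 and 2632 at HH38, and the fibril collagen COL11A1 446 and 552 at HH32, 498 and 473 at HH34 and 619 and 634 at HH38. None of these 4 passed a test in any of the 3 steps. EGFL6, a secreted protein with EGF repeats, had 3338 and 3193 at HH27, against 845 and 1033 at HH24 (difference 1.81 ± 0.17, limma, adjusted p = 2.24e-06), and then 8754 and 9203 at HH32, 11298 and 11195 at HH34 and 10243 and 10502 at HH38. FGFBP2, which binds fibroblast growth factors, had 565 and 610.0 at HH27, against 84.1 and 56.9 at HH24 (difference 3.08 ± 0.84, adjusted p = 0.0444, a call kept in 12 of 36 alternatives). It had 3133 and 2768 at HH32, 2280.5 and 1982 at HH34 and 924 and 1103 at HH38, each late stage lower than the one before it, though the late differences did not pass the test.

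COL20A1, MFAP5 and COL6A2, the genes of this group that rose between HH34 and HH38, encode proteins of the extracellular matrix. COL20A1, a fibril-associated collagen, had 2411 and 2343 at HH38, against 495 and 553 at HH34 (log2 difference 2.18 ± 0.37, limma, adjusted p = 0.000258). MFAP5, a microfibril protein, had 2867 and 2578, against 886 and 883 (1.62 ± 0.43, adjusted p = 0.0133, lost without any 1 of the 4 arrays), and COL6A2, of beaded-filament collagen, 8487 and 9175, against 3919 and 3409 (1.27 ± 0.33, adjusted p = 0.0112, lost without HH34 replicate 2 or either HH38 array). Its chromosomal neighbour COL6A1 differed by 0.77 ± 0.25 (adjusted p = 0.0484), under the 2-fold limit. POSTN, periostin, had 3381 and 3649 at HH32, 4498 and 4600.0 at HH34 and 7055 and 8118 at HH38, and TNMD, tenomodulin, a tendon marker, 1944 and 1919 at HH32, 2765 and 2908 at HH34 and 3928 and 3319.9 at HH38, over earlier arrays of 0.958, 23.9 and 153. In the tendon transcription factor MKX the HH34 and HH38 arrays overlapped, with 551 and 641 at HH32, 672 and 637 at HH34 and 634 and 701 at HH38.

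Small leucine-rich proteoglycans and genes known from bone-resorbing cells also belonged to the group. OGN, BGN and ECM2 lie side by side or 1 gene apart on the chromosome. OGN had 1319.9 and 1242 at HH32, 1321 and 1350.1 at HH34 and 1907 and 1806 at HH38. BGN had 409 and 356 at HH32, 547 and 508 at HH34 and 697 and 622 at HH38, and the late arrays of ECM2 lay between 242 and 349.7. MGP, which keeps cartilage from mineralising, had 1363 and 1233 at HH32, 1742 and 1990.0 at HH34 and 3097 and 2829.7 at HH38. CTSK, the collagen-cutting protease of osteoclasts, had 1187 and 778 at HH32, 1637 and 1744 at HH34 and 3074 and 2988 at HH38, and ATP6V0D2, a proton pump subunit of osteoclasts, had 156 and 163 at HH32, 562 and 618 at HH34 and 329.5 and 301 at HH38. ATP6V0D2 was above background on both arrays of 3 stages of HH1 to HH9, with a highest mean of 44.1 at HH2. Its lasting detection began at HH32, and its HH34 minus HH32 difference of 1.89 ± 0.54 did not pass the test (limma, adjusted p = 0.265).

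Of 18 genes of neurons and myelin, 12 were lower at HH38 than at HH34. Their median difference was -0.23 on the log2 scale, against -0.01 over all probe sets. The share of all genes lower at HH38 was not counted, so nothing is read from the 12. Of the 18, 3 rose between HH24 and HH27 (CRHBP, NEUROD6 and PENK) and 1, CRHBP, fell between HH34 and HH38. PENK, the precursor of enkephalins, had 9552 and 10466 at HH27, against 3664 and 4112 at HH24 (difference 1.36 ± 0.12, limma, adjusted p = 1.83e-06), and then 14027 and 13574 at HH32, 16237 and 14910.2 at HH34 and 16037 and 14097 at HH38. It was above background on all 30 arrays. CRHBP, which binds corticotropin-releasing hormone, had 419 and 368 at HH27, against 58.3 and 59.8 at HH24 (difference 2.73 ± 0.32, adjusted p = 3.54e-05). It then had 1339.5 and 1358 at HH32, 2437 and 2979.5 at HH34 and 1148 and 1216 at HH38, and both HH38 arrays were below both HH34 arrays (difference -1.19 ± 0.32, adjusted p = 0.0147, lost without HH34 replicate 2 or either HH38 array).

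NEUROD6, a transcription factor of forebrain neurons, had 389 and 371 at HH27, against 16.9 and 85.0 at HH24, where 1 array was below background, a rise of at least 6.00-fold (limma, adjusted p = 0.032, lost without HH24 replicate 1 or either HH27 array). Its late arrays were 864 and 748 at HH32, 1311 and 649 at HH34 and 317 and 241 at HH38, and the lower HH38 values did not pass the test (adjusted p = 0.213). GRIN1, GRIA2 and GRIA3 are subunits of glutamate receptors. GRIN1 had 377 and 387 at HH32, 623 and 611 at HH34 and 672 and 771 at HH38. GRIA2 had 338 and 435 at HH32, 422 and 365 at HH34 and 286 and 338 at HH38, and GRIA3 had 1702 and 1148 at HH32, 1248 and 1304 at HH34 and 1084 and 1069 at HH38. SNAP25, which drives vesicle fusion at the synapse, had 3755 and 4120.5 at HH32, 4642 and 4374 at HH34 and 3489 and 4189.7 at HH38, over earlier arrays of 4.45, 73.5 and 1265. Among these 4 only GRIN1 had its highest mean at HH38.

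MBP and VSNL1 were among the 6 genes of neurons and myelin with their highest late mean at HH38. MBP, a main protein of myelin, had 303 and 289 at HH32, 369.9 and 296 at HH34 and 3054 and 4377 at HH38, with earlier arrays of 2.41, 39.6 and 75.4. Both HH38 arrays were above all others, and the fitted difference from HH34 of 3.47 ± 1.15 had an adjusted p of 0.05001 in limma's test, at the threshold and not called, though it was called in 11 of 36 alternatives. VSNL1, a neuronal calcium sensor, had 1036 and 1099 at HH32, 1378 and 1331 at HH34 and 2609.6 and 2912 at HH38 and a difference of 1.03 ± 0.34 (adjusted p = 0.05005), not called either but called in 10 of 36 alternatives.

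Among epithelial genes KRT5 stood apart. KRT5, a keratin of the basal epidermis, had 167 and 144 at HH32, 591 and 617 at HH34 and 8429 and 8336 at HH38, with 34.5 and 26.8 at HH27 and a highest earlier signal of 42.0. The HH38 arrays lay above the HH34 arrays by 3.80 ± 1.11 on the log2 scale (limma, adjusted p = 0.0246, lost without any 1 of the HH34 or HH38 arrays). GKN2, a gastrokine of the stomach lining, did the opposite: it had 9521 and 9855 at HH32, 10748 and 8848 at HH34 and 2953 and 1848 at HH38, a fall between HH34 and HH38 (difference -2.06 ± 0.67, adjusted p = 0.0445) that was called in 16 of 36 alternatives. The pigment cell protein PMEL had 328 and 266 at HH32, 425 and 461 at HH34 and 1677 and 1567 at HH38, and UPK3A, a uroplakin of the urinary tract lining, 353 and 288 at HH32, 354 and 451 at HH34 and 340.0 and 479 at HH38. OC90, an otoconial protein of the inner ear, had 56.8 and 94.8 at HH27, against 3.33 and 4.72 at HH24, a rise of at least 1.81-fold (adjusted p = 0.00459) that was lost with signals floored at 40 and without HH24 replicate 1 or HH27 replicate 2. OC90 had been above background on both arrays of 3 stages of HH1 to HH9. Its stage mean was 101 at HH6, against 73.4 at HH27, and its other probe sets scored from -0.06 to 0.80. TINAG, a kidney basement membrane antigen, rose at least 3.08-fold between HH24 and HH27 (adjusted p = 0.00985, lost without HH24 replicate 2 or either HH27 array). TINAG too was detected at 2 stages of HH1 to HH9, with a mean of 84.0 at HH9.

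Of the 9 genes of blood and defence, 1 rose between HH24 and HH27 and none was called at HH34 minus HH32 or HH38 minus HH34. AvBD9, an avian beta-defensin, had 913 and 697 at HH27, against 119 and 191 at HH24 (log2 difference 2.40 ± 0.26, limma, adjusted p = 1.52e-05), and then 4367 and 4208 at HH32, 3679 and 3524 at HH34 and 3222 and 3936 at HH38. RHAG, the Rh-associated channel of the red cell membrane, had 438 and 447 at HH32, 444 and 418 at HH34 and 476 and 419 at HH38, and 1 of its 22 earlier arrays was above background. The prostaglandin D synthase HPGDS had 2116 and 1678 at HH32, 2107 and 2086 at HH34 and 3804 and 4322 at HH38, and F13A1, the clot-stabilising transglutaminase, 437 and 524 at HH32, 553 and 564 at HH34 and 1214 and 1112 at HH38. HPGDS and F13A1 were highest on both HH38 arrays, while the late arrays of AvBD9 and RHAG stayed within a narrow range. CD4, a T cell and macrophage surface protein, had 199.6 and 196 at HH32, 245 and 210.2 at HH34 and 274 and 245 at HH38, and LEAP2, an antimicrobial peptide of liver, 337 and 348 at HH32, 376 and 290.0 at HH34 and 293 and 420.4 at HH38.

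Of 13 transcription factors and signals, 3 rose between HH24 and HH27 (RPRM, NFIA and NFIX) and 2 between HH34 and HH38 (EGR1 and KLF2). Of the 4 nuclear factor I genes, which act in the maturation of glia, muscle and lung, NFIA, NFIB and NFIX were members with scores of 1.95, 1.99 and 2.25, and NFIC was not, at 0.26 and 0.01 on its probe sets. NFIA had 1861 and 1824 at HH27, against 743 and 836 at HH24 (difference 1.22 ± 0.22, limma, adjusted p = 0.00247, just above 0.05 without HH24 replicate 1), and then 2993 and 3107 at HH32, 3822 and 3947 at HH34 and 3761 and 3257 at HH38. NFIX had 203 and 233, against 71.5 and 120.0 (difference 1.23 ± 0.34, adjusted p = 0.0488, a call kept in 14 of 36 alternatives), and then 757 and 725 at HH32, 1079 and 886 at HH34 and 1255 and 1171 at HH38. NFIB had 1251 and 1284 at HH32, 1697 and 1749.7 at HH34 and 1685 and 1789.7 at HH38, over earlier arrays of 0.556, 28.0 and 354, and its step to HH27 did not pass the test (adjusted p = 0.782). The HH34 and HH38 arrays of NFIB overlapped on this probe set. On another NFIB probe set, with a score of 1.82, the stage mean was 3636 at HH27, against 1648 at HH24, and 8492 at HH38, against 7088 at HH34. Both NFIA arrays of HH38 were below those of HH34, and both NFIX arrays of HH38 were above those of HH34 without passing the test (adjusted p = 0.659).

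EGR1, an immediate early transcription factor, had 1739 and 1695 at HH38, against 367 and 483 at HH34 (difference 2.03 ± 0.29, limma, adjusted p = 3.75e-05), and KLF2, a factor of flow-exposed endothelium, 3601 and 3191, against 1373 and 1712 (difference 1.14 ± 0.25, adjusted p = 0.00296, above 0.05 without HH34 replicate 1). Both were above background on all 30 arrays, and their HH34 and HH38 arrays did not overlap, which their calls favour. RPRM, a cell cycle inhibitor below background on all 22 earlier arrays, had 91.2 and 185 at HH27, against 6.62 and 9.44 at HH24, a rise of at least 3.20-fold (adjusted p = 0.00341, lost without HH24 replicate 1 or HH27 replicate 2). PDGFD, a platelet-derived growth factor, had 3128 and 2913 at HH32, 3834 and 4139.6 at HH34 and 4696 and 4428 at HH38, and PIK3R1, the regulatory subunit of PI3-kinase, 2224 and 2176 at HH32, 2888 and 2734 at HH34 and 3399.9 and 3696 at HH38. INHBA, the activin A subunit, had 399 and 453 at HH32, 515 and 549 at HH34 and 523 and 549 at HH38, over earlier arrays of 0.600, 21.2 and 64.2, and DLK1, a Delta-like protein of immature cells, 1605 and 1696 at HH32, 1930.3 and 1595 at HH34 and 1245 and 1082 at HH38.

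Among the 19 remaining genes 5 rose at HH27 (AVDL, LOC100858647, CL2, C1QTNF2 and FAM129A). AVDL was below background on all earlier arrays and had 184 and 168 at HH27, against 7.67 and 32.8 at HH24, a rise of at least 4.34-fold (limma, adjusted p = 0.00636, lost without HH24 replicate 1 or either HH27 array), and then 931 and 1027 at HH32, 1525 and 1656 at HH34 and 1145 and 730.0 at HH38. CL2 was lost without HH24 replicate 1 or HH27 replicate 2, C1QTNF2 without any 1 of the HH24 or HH27 arrays, and FAM129A without HH27 replicate 1 or with 75th percentile scaling. LOC100858647 rose at least 2.04-fold (adjusted p = 0.0401, lost in 11 of 36 alternatives). OCM3, of the parvalbumin family of calcium binders, had 6209 and 6328 at HH32, 9438 and 10010.1 at HH34 and 13704 and 14273 at HH38, over earlier arrays of 1.77, 38.6 and 615, and its HH27 difference did not pass the test (adjusted p = 0.149). PLAC9 had 1885 and 1929 at HH32, 2456 and 2391 at HH34 and 3308 and 3221 at HH38, and C1QTNF2, of the C1q and TNF-related proteins, 704 and 645 at HH32, 1066 and 904 at HH34 and 2285 and 2186 at HH38. In OCM3, PLAC9 and C1QTNF2 both HH38 arrays were above all others.

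Some members were detected early and then not at a middle stage. In 26 of the 150, both arrays were above background at a stage of HH1 to HH9 and both were below it at some stage of HH11 to HH24. The same count was not made over all genes, so nothing is read from it. Several of the 26 lay close to background early, with highest means of 32.5 in INHBA and 36.7 in UPK3A. MBL2, mannose-binding lectin of the liver, had a stage mean of 420.0 at HH9, 26.8 at HH16, 223 at HH27 and 2428 at HH38. CL2 had 477, 8.49, 472 and 1521 at the same stages, and CRHBP 240.1, 44.6, 393 and 1182. These 3 were high, low and high again. MYBPC1 had 213 at HH6, 3.87 at HH11 and 8039 at HH38. The plasma proteins SPP2, F12, C8A, F9 and MBL2 were 5 of the 26, and the other members of that kind with such a course, such as FETUB, GC and ITIH2, were above background on at least 1 array of every stage from HH11 to HH24.

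Gene lists of tissues put the members beside their pathways. They were written with earlier results of these data known. The counts are of listed genes with a probe set that passed the signal filter of the limma fit, and listed genes that failed it are left out. Of 30 liver plasma protein genes 9 were members, 13 rose and 0 fell between HH24 and HH27, and 3 rose and 0 fell between HH34 and HH38. Among those left out by the score, TF, transferrin, had a stage mean of 25442 at HH38 and of 15738 at HH9, and rose by 1.48 ± 0.14 between HH24 and HH27 (limma, adjusted p = 2.05e-06). TTR, transthyretin, had 19263 at HH38 and 32895 at HH9, and a score of -1.37. Both were high in late and early stages alike. Of 17 liver and kidney metabolic enzymes 3 were members and 7 rose between HH24 and HH27, while 1 fell between HH34 and HH38. FBP1, of glucose synthesis, which was no member, had 13665 at HH38 and 12909.9 at HH9.

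Of 19 skeletal muscle genes 9 were members, 1 rose between HH24 and HH27 and 2 between HH34 and HH38, with a median difference of 1.13 on the log2 scale in the last step. None of 9 heart muscle genes and none of 6 smooth muscle genes were members. Of 22 cartilage, bone and tendon genes 6 were members, 3 rose between HH24 and HH27 and 4 between HH34 and HH38. Of 17 synapse genes 3 were members, 0 rose between HH24 and HH27 and 1 rose between HH34 and HH38, which was NPY, no member, by 2.90 ± 0.17 (limma, adjusted p = 8.75e-11). The 13 myelin and glia genes held 1 member, with 1 higher at HH27, which was TF, also counted in the liver list, and 1 lower at HH38, MOBP. MOBP had stage means of 30.9 at HH34 and 7.19 at HH38, against backgrounds of 28.7 to 38.1 on these arrays, so its fall lay at or below background. Of 11 epidermis and feather genes 1, KRT5, was a member and 8 rose between HH34 and HH38.

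Members were rare or lacking in the other lists. Kidney transport had 0 of 15, with 3 higher and 1 lower at HH27 and 2 higher and 1 lower at HH38. The gut and pancreas list had 1 of 17 (GKN2), with 1 higher at HH27 and 1 lower at HH38, and the endocrine list 1 of 17 (PENK), with 2 higher at HH27. Late red cell genes had 1 of 7 (RHAG), with 2 lower at HH38. Lens had 0 of 12, with 5 lower at HH38, retina 0 of 9 with no call, lung 0 of 3 with 1 higher at HH38, leukocytes 0 of 21 with 4 higher at HH38, and fat 0 of 11 with 4 higher at HH38. No gene of the 18 lists was called between HH32 and HH34. Over all probe sets 0.922% were called at HH27 minus HH24 and 3.8% at HH38 minus HH34.

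Some members were neighbours in the GRCg7b gene order. LIPC and AQP9, COL6A1 and COL6A2, FETUB and KNG1, MYH1B and MYH1C, and the trio of ECM2, BGN and OGN had at most 1 other gene between them. With up to 2 genes between, 11 of 147 placed members (7.48%) had a member near, against 664 of 12595 other measured genes (5.27%). The members' other probe sets gave a check on the choice of the best one. Of the 150 genes 73 had 163 further probe sets, of which 99 had a score above 0, 28 had a score above the lowest of the 150, and 20 were below background on all 6 late arrays. For 11 of these 73 genes, among them ACAN, ADH1C and COL6A2, no further probe set scored above 0. The genes without a further probe set could not be checked in this way, and their place also rests on 1 probe set.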

How the data were processed

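Linear signal intensities of 38535 probe sets on 30 arrays were deposited, made with the MAS5 algorithm per the submitters' processing notes (version not given in the sources used here), and the trimmed mean of every array is 500, with 2% trimmed at each end. Of 37693 chicken probe sets, 27166 carried 1 gene symbol, 177 several and 10350 none.

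Intensities were log2-transformed, and 29600 chicken probe sets above the 40th percentile on at least 2 arrays were fitted with 15 stage means in limma 3.58.1 (R 4.3.3), using lmFit and trended eBayes, with 15 residual degrees of freedom, and adjusted over all of them by Benjamini-Hochberg. Every adjusted p is from this fit. The code was tested on simulated data. The p-values measure the spread between 2 pools a stage. Where the dimmer stage was not above background, the fold is the bright mean over the higher of each array's background and own signal. The number of arrays limits precision.

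The members, roles and lists were chosen with earlier results of these data known. Genes were named as the 10 highest scores, the 4 on each side of the limit, the 4 of each role with the highest HH38 mean, the 8 largest calls of a step in each direction, and members of the tissue lists with at most 3 others; further genes were chosen after their values were seen. Alternatives changed the scaling, floor, filter, variance model, replicate term and arrays used.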

Additional observations from a re-analysis of the deposited data

How the results depend on the processing

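In every alternative run, more members were called higher than lower or none was called. Among all probe sets the split of calls turned at HH38 minus HH34 without HH38 replicate 2 (463 higher and 499 lower, against 687 and 439) and at HH34 minus HH32 without HH34 replicate 1 (7 and 28, against 10 and 8) or replicate 2 (2 and 29), and by small margins under some others. Signals floored at 40 moved all 3 counts of called members: 86 at HH27 minus HH24 in place of 34, 5 at HH34 minus HH32 in place of 0, and 32 at HH38 minus HH34 in place of 12. Floored low values vary less by construction. Leaving out 1 array at a time gave 14 to 39 calls at HH27 minus HH24, 0 at HH34 minus HH32 and 6 to 15 at HH38 minus HH34. Other scalings, no filter and no variance trend gave 30 to 35, 0, and 10 to 16. The fit with the replicate block gave 35, 0 and 12. Over all fitted probe sets, pools with the same replicate number did not deviate together (correlations of -0.03 to 0.04 over 105 stage pairs). These correlations cannot exclude a shared difference in a few genes. The W-linked HINTW was lower on replicate 2 at every stage from HH6 to HH24, as with 13066 against 27182 at HH24. It was higher on replicate 2 at HH1, HH2, HH4, HH27, HH32 and HH38. Of the 150 genes, 94 were chosen again with HH27 among the late stages, 102 with HH27 among the early ones, 113 with the mean over a gene's probe sets, and 131 to 147 under the other settings of floor, scaling, stages and replicate sets. Without single arrays 139 to 150 were chosen again, 44 genes were in all 40 settings, and 18 of the first 20 were in every setting. With 2 arrays a stage, differences near 2-fold of genes close to background were not resolved.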

Other observations

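Probe sets without a gene symbol were left out of the rule. Of the 10350 such chicken probe sets, 39 had a score at or above the lowest of the 150 genes, and the highest was 3.21. Of the 689 probe sets for other organisms, 0 reached it.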
